A study of Mus musculus with 5 samples.

Results

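The 10 genes described here encode the transcription factors that carry the circadian clock's rhythm to other genes and that steady its core loop. They are Dbp, Tef and Hlf of the PAR bZIP family, their counterpart Nfil3, the REV-ERB genes Nr1d1 and Nr1d2, the ROR genes Rora and Rorb, and the DEC genes Bhlhe40 and Bhlhe41. They are named by family membership, with no threshold on their values, and all 10 were found among the 46078 genes of each library's table. The libraries were made from primary neural precursor cells of the subventricular zone, the stem cell region beside the lateral ventricles, of C57BL/6 mice with no mutation. The labels give the mice as female and 5 to 8 weeks old, and the study's methods give an older age. All cells were grown as spheres with EGF and FGF2, passaged, plated on poly-D-lysine and given PBS as a sham exposure. RNA was taken 1 h later in 2 libraries (replicates 1 and 2) and 8 h later in 3 libraries (replicates 13, 14 and 15). The study counted 1 animal as 1 biological replicate for these cells, and the sources used here do not give the time of day of each harvest.

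The mammalian clock is a feedback loop in which CLOCK and BMAL1 (the product of Arntl) bind E-box sites in DNA and switch on the Per and Cry genes, whose proteins then block them. The same E-box drive acts on Dbp, Tef, Nr1d1, Nr1d2 and the DEC genes. DBP, TEF and HLF activate genes through the D-box site, and NFIL3 represses through that same site. REV-ERB proteins repress and ROR proteins activate Arntl through a shared element, while DEC proteins compete at the E-box. Many cells in culture keep such a loop, and a change of medium can set its phase.

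The promoters of the members show which of these sites lie close to their starts. RefSeq promoters on GRCm38.p6 were found for 9 of the 10 members, which gave 11 promoters of 250 bases before to 50 bases after the start. They were searched on both strands for the E-box CACGTG, the D-box TTANGTAA and the core of the ROR and REV-ERB element, TAGGTCA or TGGGTCA. Of all 32851 promoters in that set, 7.15% held the E-box, 2.32% the D-box and 6.45% the ROR and REV-ERB core. Both Tef promoters and the Bhlhe41 promoter held an E-box, the Nfil3 promoter held a ROR and REV-ERB core, and an internal Rorb promoter held a D-box. The E-box variant CACGTT, which 4.68% of all promoters held, was searched after those counts were known and was found in the Nr1d1 promoter and in the internal Rorb promoter. The promoters of Dbp, Hlf, Nr1d2 and Rora and the first Rorb promoter held none of these letters in this window. The 250 bases before the start are printed below 5′ to 3′ on the strand of the gene, for Tef and Bhlhe41 with their E-boxes, Nr1d1 with the variant and Nfil3 with the ROR and REV-ERB core, as each is a match to an element of the loop described above. The matching letters are in capitals, also where the match is on the opposite strand.

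Tef, first start, chr15:81802423-81802672, plus strand, E-box beginning 127 bases before the start:
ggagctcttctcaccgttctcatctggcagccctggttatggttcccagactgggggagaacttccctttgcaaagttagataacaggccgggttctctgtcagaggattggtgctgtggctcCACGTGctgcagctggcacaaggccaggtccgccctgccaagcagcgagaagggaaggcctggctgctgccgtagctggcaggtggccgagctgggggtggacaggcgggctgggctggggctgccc
Tef, second start, chr15:81811164-81811413, plus strand, E-box beginning 138 bases before the start:
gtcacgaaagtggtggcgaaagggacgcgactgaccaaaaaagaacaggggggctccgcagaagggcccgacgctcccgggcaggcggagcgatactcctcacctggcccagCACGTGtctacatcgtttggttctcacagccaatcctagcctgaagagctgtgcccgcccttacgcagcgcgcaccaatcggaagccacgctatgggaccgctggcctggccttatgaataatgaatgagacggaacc
Bhlhe41, chr6:145865421-145865670, minus strand, E-box beginning 153 bases before the start:
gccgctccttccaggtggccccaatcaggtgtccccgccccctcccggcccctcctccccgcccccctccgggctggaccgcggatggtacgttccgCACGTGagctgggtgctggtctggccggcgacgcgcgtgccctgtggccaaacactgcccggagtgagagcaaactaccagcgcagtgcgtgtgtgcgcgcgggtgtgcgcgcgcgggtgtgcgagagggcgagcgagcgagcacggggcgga
Nr1d1, chr11:98775378-98775627, minus strand, E-box variant beginning 28 bases before the start:
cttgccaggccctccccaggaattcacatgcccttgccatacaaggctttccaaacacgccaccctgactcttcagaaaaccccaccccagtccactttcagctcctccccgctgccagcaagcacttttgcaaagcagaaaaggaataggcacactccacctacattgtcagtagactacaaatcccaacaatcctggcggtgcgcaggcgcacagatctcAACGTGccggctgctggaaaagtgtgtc
Nfil3, chr13:52981040-52981289, minus strand, ROR and REV-ERB core beginning 12 bases before the start:
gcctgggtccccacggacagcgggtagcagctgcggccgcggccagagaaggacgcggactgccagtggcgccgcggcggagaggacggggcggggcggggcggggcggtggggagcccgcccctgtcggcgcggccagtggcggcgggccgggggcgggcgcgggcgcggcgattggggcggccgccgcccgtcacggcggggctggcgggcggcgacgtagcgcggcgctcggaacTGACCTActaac

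The libraries differed in a way that time does not describe, and this bears on each result below. Their identifiers in the labels fall into 2 number series, and what the series stand for is not stated. Series 1 holds both 1 h libraries and 8 h replicate 14, and series 2 holds 8 h replicates 13 and 15. Although all mice are labelled female, the female-specific RNA Xist reached 165.3 and 199.7 TPM in series 2 and at most 0.0611 TPM in series 1, where the Y-linked gene Eif2s3y had 75.6 to 108.7 TPM. Mitochondrial genes took 6.23% and 6.30% of all TPM in series 2 and 10.7% to 11.1% in series 1. All 6 neural stem and precursor markers were present at 1 TPM or more on average, and Sox2 had 181.0 to 227.7 TPM. Summed proliferation markers (Mki67 and Top2a) had 404.5 and 471.9 TPM in series 2 against 199.4 to 217.1 TPM in series 1. The 5 astrocyte markers summed to 1002 and 1011 TPM against 579.7 to 705.3 TPM, the 5 neuron markers to 43.2 and 46.4 TPM against 62.4 to 68.3 TPM, and the 4 oligodendrocyte markers to 35.5 and 69.1 TPM against 112.8 to 164.0 TPM. Of the microglia, endothelial and ependymal markers, 0 of 4, 2 of 4 and 1 of 3 reached a mean of 1 TPM, with sums of at most 1.41 TPM, 11.8 to 15.4 TPM and 16.3 to 27.5 TPM. The ependymal gene Foxj1 was lower in every 8 h library, as 9.43% of all genes tested were. It had 22.4 and 26.8 TPM at 1 h, against 17.2, 15.5 and 14.4 TPM in 8 h replicates 13, 14 and 15. Rsph1 and Ccdc153, the other ependymal markers, averaged 0.925 and 0.413 TPM, and their groups overlapped. The log2 fold change of Foxj1 was -0.61 (SE 0.14, limma, unadjusted p = 0.00481), and its adjusted p of 0.287 in limma was above 0.05. As series 2 holds no 1 h library, a difference with time could be read within series 1 only. The microglia genes Tmem119 and C1qa and the endothelial gene Cldn5 were listed at 0 TPM in each library. What part these differences had in the results below was not tested, and in such bulk RNA fewer cells of a type and less RNA per cell cannot be told apart.

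Tef was the most abundant of the 10 genes and Bhlhe41 the least. At 1 h the order by mean TPM (a share of all transcripts that adjusts for gene length) was Tef, Nr1d1, Nr1d2, Rorb, Bhlhe40, Dbp, Nfil3, Hlf, Rora and Bhlhe41. Of the 9 pairs of neighbours in that order, 2 had overlapping values, Bhlhe40 with Dbp and Hlf with Rora. At 8 h the order was Tef, Bhlhe40, Rorb, Nr1d1, Nr1d2, Nfil3, Dbp, Hlf, Rora and Bhlhe41, and 7 of the 9 neighbouring pairs overlapped. The 8 h means pool libraries of different levels: in 8 h replicate 14 Nr1d1 was still second and Bhlhe40 was sixth, below Nr1d2, Rorb and Dbp. Over all 5 libraries Tef stood at percentile 76.3 of the 13870 genes with a mean of at least 1 TPM, and Bhlhe41 at percentile 6.48.

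**Figure D1:**
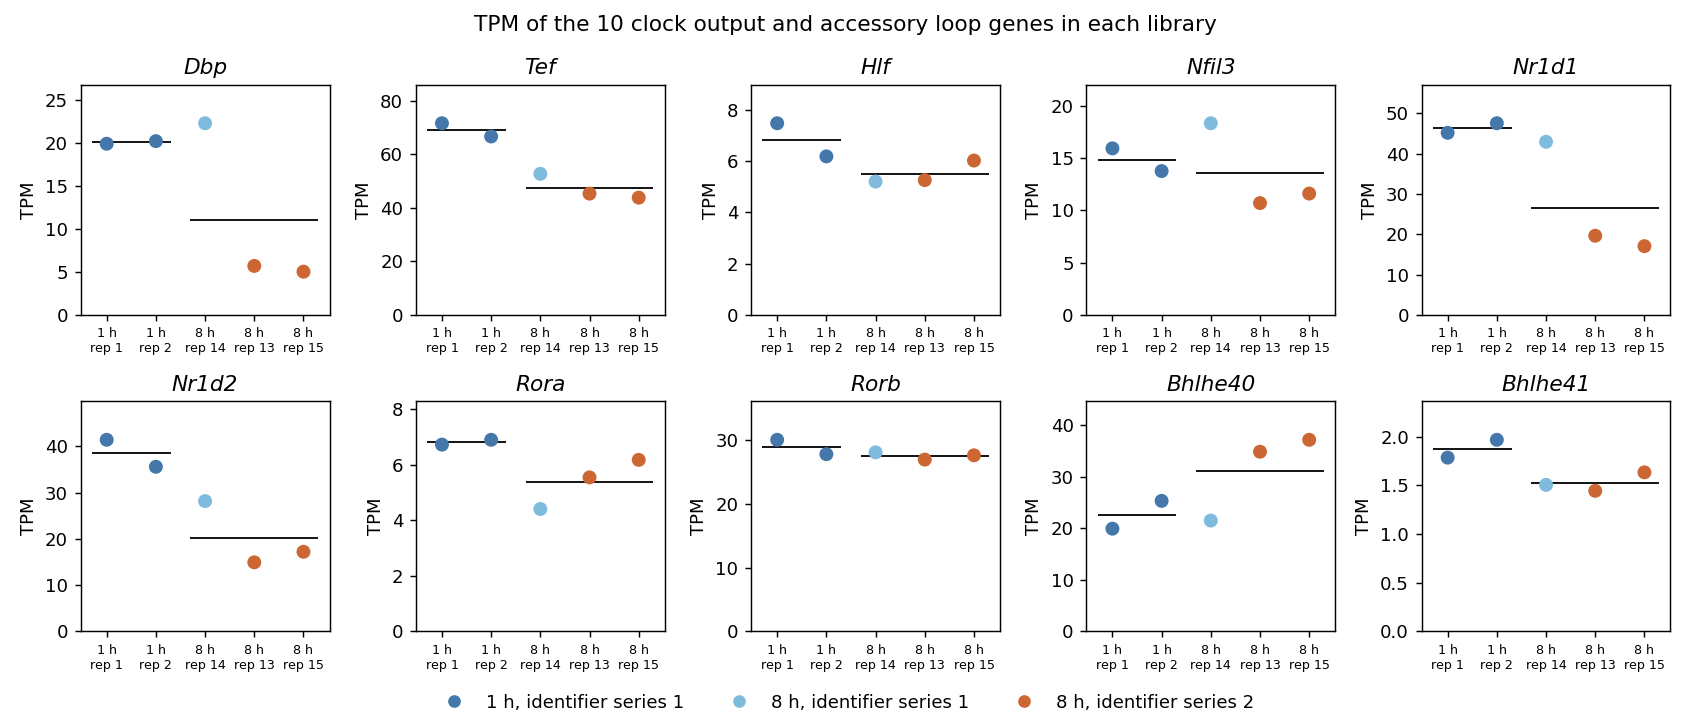
TPM (y axes, from 0) of each of the 10 genes in each library (x axes), with the 1 h libraries in dark blue, 8 h replicate 14 in light blue, 8 h replicates 13 and 15 in orange and group means as lines. Dbp and Nr1d1 were at 5.02 to 5.69 TPM and 17.0 to 19.6 TPM in the orange points and at 19.9 to 22.3 TPM and 42.9 to 47.5 TPM in the blue points, while Rorb stayed between 27.0 and 30.1 TPM.

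The comparison of 8 h with 1 h asked how these genes differed with the time after sham exposure. No member was called. With limma on log2(TPM + 1), 0 of 10 members passed an adjusted p of at most 0.05 over all genes with an absolute log2 fold change above 1, and 0.0433% of the 13870 genes tested did. An unadjusted p under 0.05 was found for 2 members, Tef and Nr1d2, both lower at 8 h, against 2.82% of all genes lower and 9.52% higher. In 6 members, Tef, Hlf, Nr1d1, Nr1d2, Rora and Bhlhe41, all 3 libraries at 8 h lay below both at 1 h, as 9.43% of all genes did, and in 0 members they lay above, as 23.7% of all genes did. The median log2 fold change was -0.29 over the members and 0.10 over all genes tested, so that the members lay -0.39 from that median. The value for the members was -0.15 with a term for the identifier series. That term gives the same fold changes as series 1 alone, because series 2 holds no 1 h library, and there it sets the lone 8 h replicate 14 against both 1 h libraries. Without 8 h replicate 14, when time and series divide the libraries alike, Dbp, Nr1d1 and Nr1d2 were called, 3 of 10 members against 4.1% of all genes, and 5 members had an unadjusted p under 0.05 with lower values and 1 with higher, against 8.46% and 28.9% of all genes. Time, series and the sex markers cannot be told apart in that comparison.

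**Figure D2:**
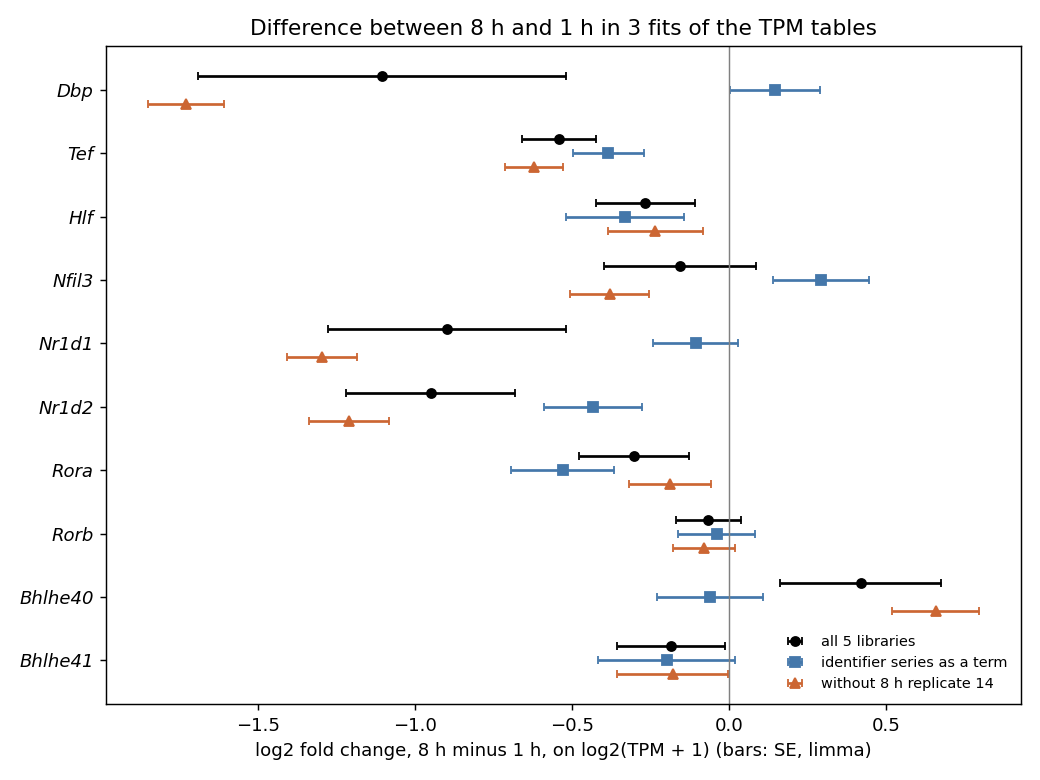
Log2 fold change of 8 h over 1 h (x axis, log2(TPM + 1) scale) for each gene (y axis) from limma with all 5 libraries (black), with a term for the identifier series (blue) and without 8 h replicate 14 (orange), with bars of 1 SE. Dbp moved from -1.10 to 0.15 with the term and to -1.73 without replicate 14, whereas Tef stayed between -0.62 and -0.38.

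The PAR bZIP factors are the activators among the output genes, and all 3 had a lower mean at 8 h. Dbp (ENSMUSG00000059824, chromosome 7, 45705088 to 45710155 on GRCm38, plus strand), a D-box activator with a strong daily rhythm in many tissues, was at 19.9 and 20.2 TPM in the 1 h libraries, against 5.69, 22.3 and 5.02 TPM in replicates 13, 14 and 15 of 8 h. Replicates 13 and 15 were thus at 0.284 and 0.25 of the 1 h mean, while replicate 14 was at 1.11, above both 1 h libraries. The log2 fold change was -1.10 (SE 0.58, limma, adjusted p = 0.451). With a term for the series it turned to 0.15 (SE 0.14, limma, adjusted p = 0.808), and without 8 h replicate 14 it was -1.73 (SE 0.12, limma, adjusted p = 0.00207). Its highest and lowest libraries differed 4.44-fold, the widest range of the 10 genes. In the GENCODE vM21 annotation, 18.0% of the Dbp exon bases overlap those of Sphk2, a lipid kinase gene on the opposite strand. Sphk2 was at 14.3 and 17.1 TPM in the 1 h libraries, against 13.3, 19.1 and 14.9 TPM in replicates 13, 14 and 15 of 8 h, with a log2 fold change of -0.0065 (limma, adjusted p = 0.989).

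Tef (ENSMUSG00000022389, chromosome 15, 81802421 to 81826861, plus strand) was at 71.6 and 66.7 TPM in the 1 h libraries, against 45.3, 52.7 and 43.8 TPM in replicates 13, 14 and 15 of 8 h. All 3 libraries at 8 h were lower than both at 1 h, those of each series included, at 0.634 to 0.762 of the 1 h mean. The log2 fold change was -0.54 (SE 0.12, limma, unadjusted p = 0.00372, adjusted p = 0.283). With a term for the series it was -0.38 (SE 0.11, limma, unadjusted p = 0.0153, adjusted p = 0.428). Hlf (ENSMUSG00000003949, chromosome 11, 90336536 to 90390895, minus strand), the third PAR bZIP gene, was at 7.48 and 6.19 TPM in the 1 h libraries, against 5.26, 5.21 and 6.03 TPM in the same 8 h libraries. The groups did not overlap, but 8 h replicate 15 lay close under 1 h replicate 2. For Hlf the log2 fold change was -0.27 (SE 0.16, limma, adjusted p = 0.477). Tef had 2.37 to 3.60 times the TPM of Dbp in series 1 but 7.97 and 8.73 times in series 2.

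Nfil3 (ENSMUSG00000056749, chromosome 13, 52967209 to 52981073, minus strand), the D-box repressor, was at 15.9 and 13.7 TPM in the 1 h libraries, against 10.7, 18.3 and 11.6 TPM in replicates 13, 14 and 15 of 8 h. The 8 h values lay on both sides of those at 1 h, with replicate 14 the highest of all 5. For Nfil3 the log2 fold change was -0.16 (SE 0.24, limma, adjusted p = 0.758) and turned to 0.29 ± 0.15 with a term for the series (SE, limma, adjusted p = 0.639). Dbp, Tef and Hlf together had 6.22 and 6.77 times the TPM of Nfil3 at 1 h, and 5.27, 4.38 and 4.73 times in 8 h replicates 13, 14 and 15. This ratio was lower in each 8 h library than in both 1 h libraries, in series 1 as in series 2, with a mean of 6.50 (SD 0.388, n = 2) at 1 h and of 4.79 (SD 0.449, n = 3) at 8 h. In 8 h replicate 14 the summed PAR bZIP level was 80.2 TPM, against 93.0 and 99.0 TPM at 1 h, and Nfil3 was higher than at 1 h. In 8 h replicates 13 and 15 the sum was 56.3 and 54.9 TPM and Nfil3 was lower than at 1 h. The ratio was formed after the values were known and was given no test.

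The REV-ERB genes, repressors of Arntl and of other genes with the shared element, were both lower in each 8 h library. Nr1d1 (ENSMUSG00000020889, chromosome 11, 98767932 to 98775333, minus strand) was at 45.2 and 47.5 TPM in the 1 h libraries, against 19.6, 42.9 and 17.0 TPM in replicates 13, 14 and 15 of 8 h. Replicate 14 was at 0.926 of the 1 h mean and replicates 13 and 15 were at 0.423 and 0.368. For Nr1d1 the log2 fold change was -0.90 (SE 0.38, limma, adjusted p = 0.404). It was -0.11 ± 0.14 with a term for the series (SE, limma, adjusted p = 0.849) and -1.29 ± 0.11 without 8 h replicate 14 (SE, limma, adjusted p = 0.0031). Exons of Nr1d1 overlap those of the thyroid hormone receptor gene Thra on the opposite strand over 8.55% of the Nr1d1 exon bases. Thra had 114.2 and 131.0 TPM at 1 h and 112.8 to 128.0 TPM at 8 h, or -0.028 on the log2 scale (SE 0.11, limma, adjusted p = 0.907). The libraries were stranded, but the sources used here do not say whether strand was used for these tables.

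Nr1d2 (ENSMUSG00000021775, chromosome 14, 18204054 to 18239127, minus strand) was at 41.4 and 35.6 TPM in the 1 h libraries, against 14.9, 28.2 and 17.2 TPM in replicates 13, 14 and 15 of 8 h. All 8 h libraries were below both 1 h libraries, and replicate 14, at 0.732 of the 1 h mean, lay between the other 8 h libraries and those of 1 h. For Nr1d2 the log2 fold change was -0.95 (SE 0.27, limma, unadjusted p = 0.0122, adjusted p = 0.322). It was -0.43 ± 0.16 with a term for the series (SE, limma, unadjusted p = 0.0331, adjusted p = 0.501) and -1.21 ± 0.13 without 8 h replicate 14 (SE, limma, adjusted p = 0.00486). In 8 h replicate 14 Nr1d1 was thus nearer to its 1 h level than Nr1d2, a difference that rests on 1 library and was not tested.

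The ROR genes are the activators at that element. By TPM Rorb differed little between libraries, and Rora was lower at 8 h. Rorb (ENSMUSG00000036192, chromosome 19, 18930605 to 19111196, minus strand), known from the retina and the forebrain, was at 30.1 and 27.8 TPM in the 1 h libraries, against 27.0, 28.1 and 27.7 TPM in replicates 13, 14 and 15 of 8 h. Its groups overlapped, its log2 fold change was -0.067 (SE 0.10, limma, adjusted p = 0.759), and its range over all libraries was 1.12-fold, the narrowest of the 10 genes. Rora (ENSMUSG00000032238, chromosome 9, 68653786 to 69388246, plus strand), the more widely expressed ROR, was at 6.72 and 6.89 TPM in the 1 h libraries, against 5.54, 4.40 and 6.17 TPM in the same 8 h libraries. It was lower in all of them, and lowest in replicate 14, where it was at 0.647 of its 1 h mean, below the 0.926 and 0.732 of Nr1d1 and Nr1d2. For Rora the log2 fold change was -0.30 (SE 0.17, limma, adjusted p = 0.47) and -0.53 ± 0.16 with a term for the series (SE, limma, unadjusted p = 0.0182, adjusted p = 0.436). Mean coverage of Rora was low, at 1.11 to 1.57 reads per base, although its 359 to 513 counts per column were near the 395 to 587 of Hlf.

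The summed REV-ERB level was 2.35 and 2.39 times the summed ROR level at 1 h, 2.19 times in 8 h replicate 14, and 1.06 and 1.01 times in 8 h replicates 13 and 15. Repressor transcripts thus outnumbered activator transcripts in series 1 and were about level with them in series 2. The ROR sum was 32.5 to 36.8 TPM throughout, so most of the spread in the ratio came from the REV-ERB sum, at 86.6 and 83.1 TPM in the 1 h libraries, 71.1 TPM in 8 h replicate 14 and 34.5 and 34.3 TPM in series 2.

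**Figure D3:**
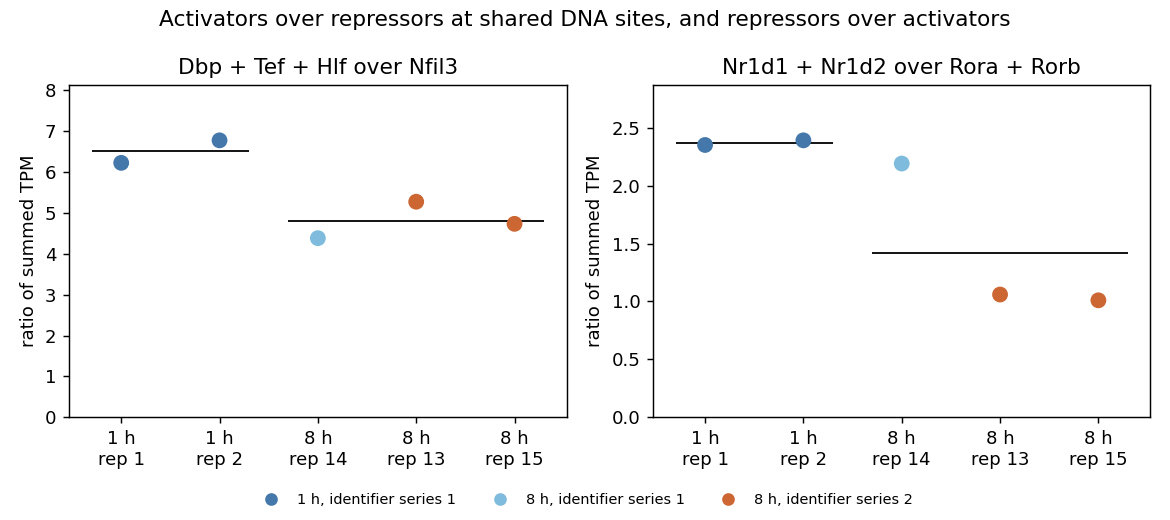
Ratio of summed TPM (y axes, from 0) in each library (x axes), for Dbp, Tef and Hlf over Nfil3 (left) and for Nr1d1 and Nr1d2 over Rora and Rorb (right), with group means as lines. The left ratio lay at 6.22 and 6.77 at 1 h and at 4.38 to 5.27 in the 3 libraries at 8 h, and the right ratio at 2.19 to 2.39 in series 1 and 1.01 and 1.06 in series 2.

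The DEC genes encode E-box repressors that also respond to growth factors and hypoxia, and Bhlhe40 was the only member with a higher mean at 8 h. Bhlhe40 (ENSMUSG00000030103, chromosome 6, 108660629 to 108666925, plus strand) was at 19.9 and 25.3 TPM in the 1 h libraries, against 34.8, 21.5 and 37.1 TPM in replicates 13, 14 and 15 of 8 h. Replicates 13 and 15 were above every other library, at 1.54 and 1.64 of the 1 h mean, and replicate 14 lay between the 1 h values. For Bhlhe40 the log2 fold change was 0.42 (SE 0.26, limma, adjusted p = 0.484), and -0.061 ± 0.17 with a term for the series (SE, limma, adjusted p = 0.94). Without 8 h replicate 14 it was 0.66 ± 0.14 with an adjusted p of 0.027 in limma, under the fold change required for a call. Bhlhe41 (ENSMUSG00000030256, chromosome 6, 145858243 to 145865558, minus strand) was at 1.78 and 1.97 TPM in the 1 h libraries, against 1.44, 1.50 and 1.63 TPM in the same 8 h libraries, with 3.57 to 5.47 reads per base. It was lower in all 3, with a log2 fold change of about the size of its error (-0.19, SE 0.17, limma, adjusted p = 0.608). The annotated gene Gm43909, on the opposite strand, overlaps 19.0% of the Bhlhe41 exon bases, and its level was not analysed here. The antisense genes that overlap Tef, Rora and Bhlhe40 cover at most 2.51% of their exon bases and had at most 0.567 TPM. Bhlhe40 had 11.2 to 14.3 times the TPM of Bhlhe41 in series 1 and 24.1 and 22.7 times in series 2.

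The other genes of the clock were read from the lists of clock genes. Of the 10 core loop genes, 0 were called and 8 had an unadjusted p under 0.05 in limma, 5 lower and 3 higher at 8 h, against 2.82% of all genes lower and 9.52% higher. By counts 6 of them were tested and 0 had an unadjusted p under 0.05 in edgeR, against 2.62% of all genes. Of the genes of the negative arm, Per1, Per2, Per3, Cry2 and Ciart were lower in all 3 libraries at 8 h, as 9.43% of all genes were, and Cry1 was not, with 25.1 and 22.1 TPM in the 1 h libraries, against 34.5, 23.8 and 32.0 TPM in replicates 13, 14 and 15 of 8 h. Per2, a repressor of CLOCK and BMAL1, was at 18.6 and 18.8 TPM in the 1 h libraries, against 9.98, 10.3 and 8.94 TPM in replicates 13, 14 and 15 of 8 h, so that replicate 14 did not stand apart from the others. Its log2 fold change was -0.88 with all libraries and -0.80 with a term for the series (limma, adjusted p = 0.24 with all libraries). Arntl, the gene of BMAL1 and a target of REV-ERB and ROR control, was at 29.4 and 24.4 TPM in the 1 h libraries. In the same 8 h libraries it was at 51.4, 34.0 and 47.9 TPM (log2 fold change 0.69 ± 0.20, SE, limma, adjusted p = 0.337). It was higher in each of them and highest in replicates 13 and 15. With a term for the series its log2 fold change was 0.33 (SE 0.15, limma, unadjusted p = 0.0704), and a link to the levels of Nr1d1 and Nr1d2 was not tested. Npas2, a relative of Clock under the same control, was at 1.64 and 1.43 TPM in the 1 h libraries, against 4.38, 2.46 and 4.52 TPM at 8 h, likewise highest in replicates 13 and 15. With a term for the series 5 core loop genes had an unadjusted p under 0.05, all lower, and among the members 3 did, Tef, Nr1d2 and Rora, all lower, against 4.08% of all genes lower and 4.98% higher.

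**Figure D4:**
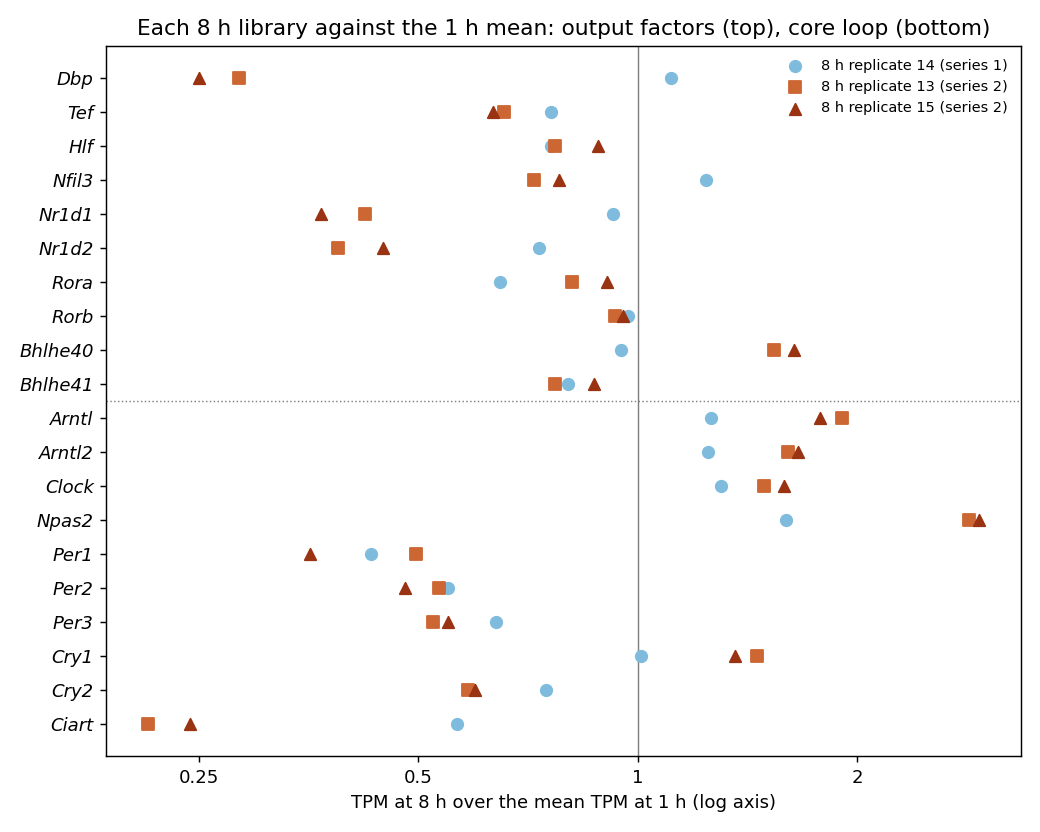
TPM of each 8 h library divided by the mean TPM at 1 h (x axis, log scale) for the 10 output and accessory genes above the dotted line and the 10 core loop genes below it. Replicate 14 (light blue) sat apart from replicates 13 and 15 (orange and brown) for Dbp, at 1.11 against 0.25 and 0.284, and beside them for Per2, at 0.55 against 0.479 and 0.534.

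The known targets and partners of these factors gave no call. Of the 7 listed REV-ERB and ROR targets, 6 were tested, 0 were called and 3 had an unadjusted p under 0.05, all higher at 8 h, against 9.52% of all genes. They are Arntl, Clock and Npas2, the 3 core loop genes counted above, and with a term for the series none had an unadjusted p under 0.05 in limma (0.0704, 0.155 and 0.0613). In the count table Clock had 149.2 and 121.2 CPM (counts scaled to the column total) at 1 h and 129.5 to 146.0 CPM at 8 h, with a log2 fold change of 0.017 by edgeR (adjusted p = 0.99). Fabp7, a fatty acid binding protein gene with a REV-ERB site, was at 7679 and 8188 TPM in the 1 h libraries, against 9280, 7687 and 10080 TPM in replicates 13, 14 and 15 of 8 h, with overlapping groups. Of the 12 listed E-box and D-box genes, which include 6 members, 0 were called and 6 had an unadjusted p under 0.05, all lower, against 2.82% of all genes. These are the members Tef and Nr1d2 and the core loop genes Per1, Per2, Per3 and Ciart, all counted above. Wee1, a cell cycle kinase gene of that list, was at 21.0 and 19.9 TPM in the 1 h libraries, against 31.1, 18.0 and 35.4 TPM in replicates 13, 14 and 15 of 8 h, high in the same libraries as Bhlhe40. Of the 3 REV-ERB corepressor genes, Hdac3, the histone deacetylase recruited by REV-ERB, was at 85.3 and 87.9 TPM in the 1 h libraries, against 138.1, 123.7 and 131.4 TPM at 8 h. Its TPM was higher in each 8 h library, also in series 1 (log2 fold change 0.59 ± 0.094, SE, limma, unadjusted p = 7.41e-04, adjusted p = 0.24). The counts did not show this, with 173.4 and 179.9 CPM at 1 h and 174.6 to 183.0 CPM at 8 h (log2 fold change -0.0016, SE 0.091, edgeR, adjusted p = 0.998). Among the 8 listed kinase, ubiquitin ligase and ubiquitin protease genes, 0 were called. Gsk3b alone had an unadjusted p under 0.05 in limma, against 2.82% of all genes lower and 9.52% higher. It was lower in all 3 libraries at 8 h (84.4 to 91.3 TPM) than in both at 1 h (99.6 and 113.1 TPM). Fbxl21 of this list was also lower in all 3, as 9.43% of all genes were.

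Dbp, Nr1d1 and Nr1d2 were the members whose libraries spanned at least 1 on the log2(TPM + 1) scale, and the genes closest to them over the 5 libraries were listed by the root mean square difference of centred values. Among the closest to Dbp were Dgkk (0.117) and Uba1y (0.131), where the median gene was at 0.951. Uba1y, a gene of the Y chromosome, was listed at 0 TPM in 8 h replicates 13 and 15. Closest to Nr1d1 were the mitochondrial genes mt-Cytb (0.0616) and mt-Nd4l (0.0979) and then Nav3 (0.103), against a median of 0.703. Closest to Nr1d2 were Tmod1 (0.0452), Cyr61 (0.075) and Cited2 (0.076), against a median of 0.634.

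Read counts were used for 8 of the 10 members, as Dbp and Nfil3 were not in the count table used here, and gave no call. With edgeR's quasi-likelihood test 0 of 8 were called and 0 had an unadjusted p under 0.05, with the same 2 counts from DESeq2, and over all 7590 genes 0% were called and 2.62% had an unadjusted p under 0.05. The count columns under the names of 8 h libraries did not match their TPM tables. Over 6860 genes, the column named 8 h replicate 13 came within 0.1 log2 of the table of replicate 14 for 79.1% of genes, and the column named replicate 15 did so for the table of replicate 13. The column named replicate 14 matched no table for more than 41.3%. Nr1d1 had 86.4 and 93.8 CPM at 1 h and 82.1, 99.97 and 34.4 CPM in the columns named 8 h replicates 13, 14 and 15 (log2 fold change -0.35 ± 0.40, SE, edgeR, adjusted p = 0.966). Nr1d2 had 119.0 and 98.7 CPM at 1 h and 86.1, 100.8 and 38.8 CPM at 8 h in that order (log2 fold change -0.56 ± 0.37, SE, edgeR, adjusted p = 0.966). For each of these genes the columns named replicates 13 and 15 lay below both 1 h columns, with the column named replicate 15 the lowest. The column named replicate 14 lay above both 1 h columns for Nr1d1 and between them for Nr1d2. Tef, lower in each 8 h library by TPM, had 198.2 and 181.7 CPM at 1 h and 155.5, 209.5 and 113.0 CPM in those columns (log2 fold change -0.28, SE 0.24, edgeR, adjusted p = 0.966). The columns named replicates 13 and 15 lay below both at 1 h, and the overlap came from the column named replicate 14 alone. With a term for the series, set by column name, the log2 fold change of Tef turned to 0.11, a value that rests on that same column. Bhlhe41 had 5.92 to 9.14 CPM in 4 columns and 23.5 CPM, from 340 counts, in the column named 8 h replicate 14. The edgeR estimate for Bhlhe41, a log2 fold change of 0.42 with an SE of 0.61 and an adjusted p of 0.966, turned to -0.45 without that column (edgeR, adjusted p = 0.746). With the columns named for series 1 alone, Bhlhe41 was the only member called, 1 of 8 against 1.91% of all genes.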

How the data were processed

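Gene expression was measured by RNA-seq of stranded libraries with poly-A selection, 2 at 1 h and 3 at 8 h. The authors mapped reads to GRCm38 with STAR through nf-core/rnaseq with gene counts from featureCounts. The submitters' notes name bcl2fastq 2.19.1.403. The deposited count table holds raw counts for 7599 genes only, with column totals of 13988166 to 18572154, filtered in a way that the sources used here do not state. The deposited TPM tables (46078 genes each) have the layout of StringTie output, but the sources used here do not name their tool. They also hold FPKM, which the authors scaled by length and depth and which gave no result here, and coverage, deposited as mean reads per base. Repeated rows of a gene (15 to 20 per table) were summed. Depth limits the precision most for Bhlhe41, Rora and Hlf.

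The members and gene lists were chosen with earlier results of these data known. The 8 h against 1 h difference was fitted over all genes whose mean TPM reached 1 with limma 3.58.1 (intensity trend) on log2(TPM + 1), which understates changes of low genes, and on counts with edgeR 4.0.16 (TMM, filterByExpr, quasi-likelihood test), with Benjamini-Hochberg adjustment and R 4.3.3. A call required both an absolute log2 fold change above 1 and an adjusted p no higher than 0.05. Scripts were tested on simulated data. Alternatives were a pseudocount of 0.1, no filter, median-ratio scaling, the identifier series as a term or series 1 alone, no fold change threshold, DESeq2 1.42.0 (alpha 0.1), other size factors, and leaving out each library. Named genes are the members, all genes of the lists, genes overlapping member exons in GENCODE vM21, and the 3 genes closest in pattern to each member spanning at least 1 on the log2 scale, leaving out symbols of Gm and a number or ending in Rik. Member coordinates in the tables equal that annotation except for Dbp and Tef. Protein sequences were not used here, and some genes that this rule names are not reported here.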

Additional observations from a re-analysis of the deposited data

How the results depend on the processing

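No paired analysis was possible because the groups share no replicate number. In the TPM tables limma called 6 genes, 0 without a filter on mean TPM (with 2371 genes at an unadjusted p under 0.05), 19 with a term for the identifier series, and 0 to 568 when each library was left out in turn. Members called were 0, or 0 to 3 over these leave-one-out fits, and the 3 arose without 8 h replicate 14. Members with an unadjusted p under 0.05 numbered 2, or 1 to 6. Core loop genes with one numbered 8, or 5 to 10, and 5 with a term for the series or with series 1 alone. The median of the members was -0.29, and -0.15 in both series settings. Median-ratio scaling moved the median of all genes by -0.10. With a term for the series or series 1 alone, the log2 fold changes of Dbp (0.15), Nfil3 (0.29) and Bhlhe40 (-0.061) reversed in the TPM tables. In the count table those of Tef (0.11), Hlf (0.267 and 0.265), Nr1d1 (0.12 and 0.11) and Rora (0.17) did so, and Bhlhe41 did without the column named 8 h replicate 14 (-0.45, against up to 0.75 over the other leave-one-out fits). The series of the counts were set by column name. The column named 8 h replicate 13, put in series 2, came within 0.1 log2 of the series 1 table of replicate 14 for 79.1% of genes. The reversals of Tef, Hlf, Nr1d1 and Rora are thus no adjustment for the series of the TPM tables. Series 1 alone by column name gave 145 called genes from counts, 1 of them a member, Bhlhe41 (log2 fold change 1.36, edgeR, adjusted p = 4.19e-04), where the lone 8 h column matched no TPM table and its spread is taken from the 1 h columns. The cause was not tested. From TPM, 100 alternative values for single members were computed, of which 91 kept direction and side of the threshold, 6 reversed and 3 newly passed it. From counts, 80 were computed, of which 70 kept both, 9 reversed and 1 newly passed. The other alternatives, pseudocount 0.1, no fold change threshold, DESeq2 and its size factors, and no filter on low counts, gave the same calls of members (0).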
